A study of Sus scrofa with 12 samples.

Results

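MAN2C1 is the gene of the cytosolic alpha-mannosidase, and 7 of the 43769 probes with a value on all 12 arrays carried its symbol on the array platform. MAN2C1 was chosen by its measured values, because 1 of its probes had passed the test of FE against SE embryos in the same 12 arrays, and the rule then took in every probe with that symbol. The ratios of FE and SE embryos are therefore given for MAN2C1 as a description and were not tested. Its 7 probes had a value on all arrays, and 0 were lost to a missing value.

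Proteins that fail to fold in the endoplasmic reticulum are moved to the cytosol, where peptide N-glycanase cuts their N-glycans off before the proteasome degrades them. The cytosolic mannosidase trims mannose residues from these free glycans, and what remains is taken up and broken down in the lysosome. It belongs to the same glycosyl hydrolase family as the Golgi and lysosomal alpha-mannosidases, which act on glycans still attached to protein or delivered to the lysosome. These roles, and those given for other genes below, were described mainly in human and mouse cells.

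The samples were pools of pig embryos collected on Day 9 after ovulation from primiparous sows in which oestrus had been induced during lactation. FE sows were inseminated at that oestrus, and SE (skip-a-heat) sows at the next one, with 3 sows per group. Embryos were sexed by PCR, and 5 male or 5 female embryos of 1 sow made a pool, which gave 12 pools. On each two-colour array 1 FE and 1 SE pool of equal sex were hybridised together, in 3 male and 3 female sets of 2 arrays, the second of which is described as the dye swap of the first. Every sow gave embryos of both sexes, so the 6 sets are not fully independent, and whether a set number marks the same sows in both sexes is not given in the sources used here. A pool of whole embryos cannot tell fewer cells of a type from less RNA per cell. Ratios carry no level, so the embryo markers could not be checked for presence.

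The deposited values were log ratios read as log2, and their base is not given in the sources used here. Over all probes the deposited values of the 2 arrays in a set correlated negatively, with Pearson's r from -0.149 in male set 1 to -0.766 in female set 3. The labels give FE embryos the same dye on all 12 arrays while the channel order changes on the swap arrays, so the direction of the ratio is not settled. The sign of the swap arrays was turned, the arrays of a set were averaged, and ratios are given in the direction of the first arrays. Whether FE or SE embryos had more MAN2C1 RNA is therefore not stated, and turning all signs would exchange positive and negative throughout.

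Probe 30585 had the highest mean ratio of the gene, 0.96 ± 0.10 (log2, SD, n = 6 sets), a difference of 1.94-fold. Its set ratios were 0.99, 1.00 and 0.93 in male sets 1, 2 and 3 and 0.77, 1.06 and 1.00 in female sets 1, 2 and 3. All 6 sets were positive, and female set 1 was the lowest. As deposited, the first arrays of the male sets read 1.02, 0.97 and 0.80 and those of the female sets 0.66, 1.14 and 1.03. The swap arrays of the male sets read -0.96, -1.04 and -1.06 and those of the female sets -0.88, -0.98 and -0.98. Each of the 12 arrays thus had the sign of its role, and the values of the first and swap arrays did not overlap.

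**Figure D1:**
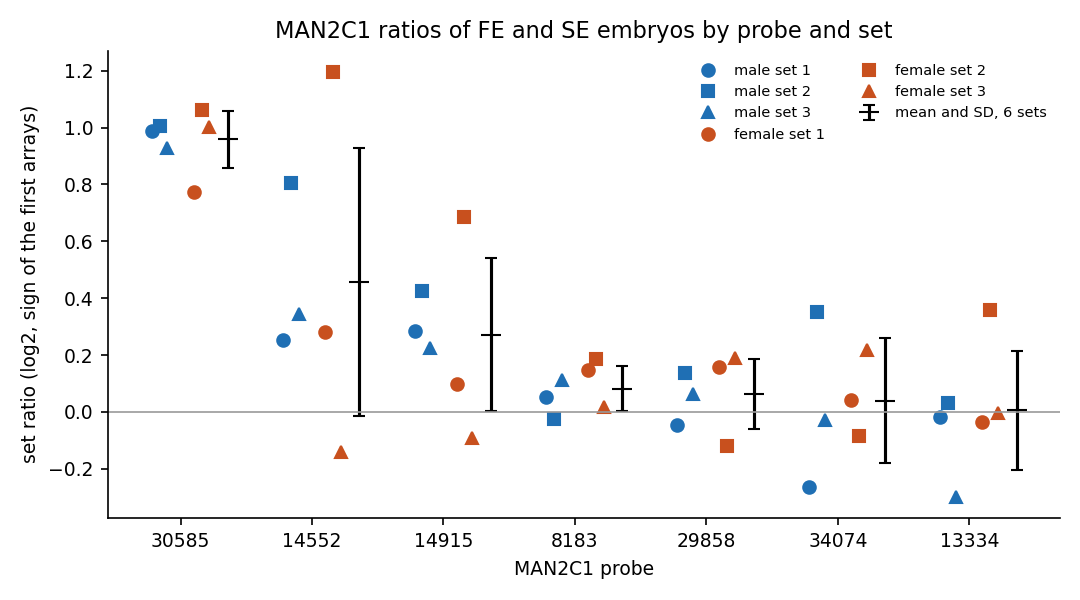
Set ratios of the 7 MAN2C1 probes (log2, sign of the first arrays), with 1 symbol per set, male sets in blue and female sets in orange, and the mean and SD over 6 sets in black. Probe 30585 lies between 0.77 and 1.06 in all sets, while the 2 probes with the next highest means spread widely and the other 4 lie around 0.

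Among all 43769 probes, the mean ratio of probe 30585 ranked 83 from the highest, or 83 from the lowest if all signs are turned, and 101 probes (0.231%) had a mean at least as large in size. Its SD over sets was smaller than that of most probes: 12.3% of probes had a smaller one, and the median SD was 0.186. It was the 1 probe of the series whose mean, in the sign of the first arrays, was at least 0.96 with an SD of 0.10 or less. Negative means of that size were not counted. The mean and the SD of probe 30585 both entered the choice of the gene, and nothing is read from them. In limma's test of both sexes against 0, which chose the gene, 2 of 43769 probes (0.00457%) were called.

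The other 6 probes gave much smaller means, from 0.01 to 0.46 with a median of 0.07, and all 6 means were positive. That sign is not stable: on first arrays alone 5 of the 6 had a negative mean, probe 14552 being the exception. Probe 13334 was also negative without female set 2 (-0.06) and probe 34074 without male set 2 (-0.02). Probe 30585 exceeded the mean of the other probes by 0.81 and was the highest of the 7 in 5 of 6 sets. Averaged over the 7 probes, the MAN2C1 ratio was 0.27 ± 0.13 (log2, SD, n = 6 sets), and without probe 30585 the mean was 0.15. The mean over probes was 0.18, 0.39 and 0.19 in male sets 1, 2 and 3 and 0.21, 0.47 and 0.17 in female sets 1, 2 and 3. It was positive in every set and highest in set 2 of either sex. The median of all probes of the series was -0.0044.

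Probes 14552 and 14915 had the next highest means and the widest spread between sets. Probe 14552 had 0.25, 0.81 and 0.35 in male sets 1, 2 and 3 and 0.28, 1.20 and -0.14 in female sets 1, 2 and 3, with a mean of 0.46 ± 0.47. Probe 14915 had 0.29, 0.43 and 0.23 in male sets 1, 2 and 3 and 0.10, 0.68 and -0.09 in female sets 1, 2 and 3, with a mean of 0.27 ± 0.27 (log2, SD, n = 6 sets). Both were highest in female set 2, next highest in male set 2 and lowest in female set 3, where each was negative. In female set 2, probe 14552 was above probe 30585.

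The remaining 4 probes lay near 0 with mixed signs. Probe 8183 had a mean of 0.08 ± 0.08 and set ratios from -0.02 to 0.19, 5 of them positive. Probe 29858 had 0.06 ± 0.12, from -0.12 to 0.19, with 4 positive sets. Probe 34074 had 0.04 ± 0.22, from -0.26 in male set 1 to 0.35 in male set 2, with 3 positive sets. Probe 13334 had 0.01 ± 0.21, from -0.30 in male set 3 to 0.36 in female set 2, with 2 positive sets. None of the 4 had 1 sign in all sets, and their ranges all lay below the lowest set of probe 30585.

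The probes differed in what the platform's table links them to. Probes 8183, 13334 and 14552 carry the accession of a predicted RefSeq transcript of pig MAN2C1, 1 of the 2 transcripts that RefSeq lists for the gene in Sscrofa11.1. Probes 30585, 14915, 29858 and 34074 carry the symbol alone. The 3 probes tied to the same transcript had means of 0.08, 0.01 and 0.46, so they did not share a ratio either. The probes' sequences and positions in the gene were not analysed here, and whether they read the same transcripts was not tested.

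How unusual such a spread is was described over the 347 genes with at least 5 probes. The highest and the lowest probe mean of MAN2C1 were 0.95 apart, against a median of 0.22 over those genes. Only BZW1, with 5 probes 1.30 apart, and GOLGA4, with 10 probes 0.97 apart, had a range as large. Among the 127 genes with 6 to 8 probes the median was 0.25, and MAN2C1 was the 1 gene to reach 0.95. The high probe is the one that chose the gene, so its place is a description.

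**Figure D2:**
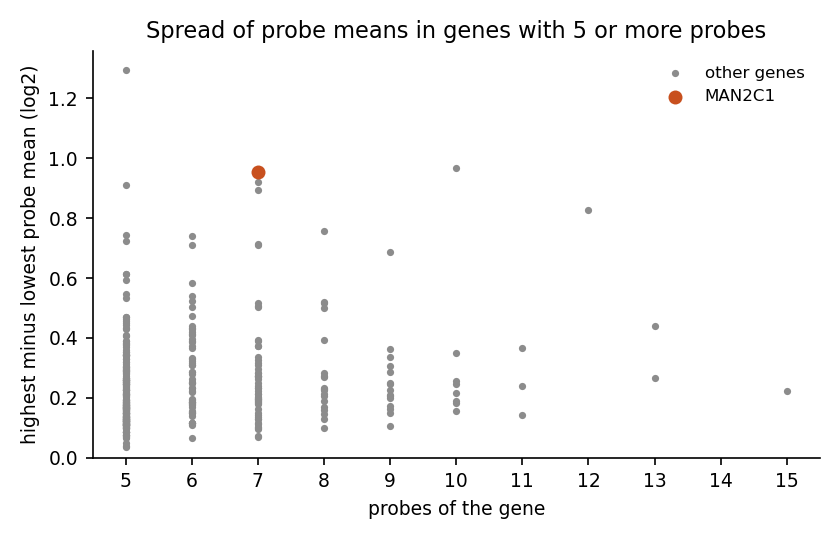
Highest minus lowest probe mean (log2) against the number of probes, for the 347 genes with 5 or more probes, 1 point per gene. MAN2C1 (orange) with 7 probes lies at 0.95, far above the median of 0.22.

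Both arrays of a set carried the same RNA, and the part of a value that kept its sign from the first to the swap array is separate, by construction, from the ratio described above. This part, the mean of the deposited values of a set, was tested against 0 with limma over the 6 sets, and it equals the ratio that would result if the swap arrays were not turned. Over all probes it passed for 37.3%, which makes calls frequent. It was -0.02 ± 0.08 (log2, SD, n = 6 sets) for probe 30585, negative in 3 of 6 sets (limma adjusted p = 0.693). For probe 30585 the size on first arrays (0.94 ± 0.17) and on turned swap arrays (0.98 ± 0.07) was close.

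For 3 of the 7 probes this part passed, a share near the background. Probe 14915 had -0.32 ± 0.04, negative in 6 of 6 sets (limma adjusted p = 0.000219), so its mean was -0.05 on first arrays but 0.59 on turned swap arrays. Probe 34074 had -0.31 ± 0.16 (limma adjusted p = 0.00238), with -0.27 on first and 0.35 on turned swap arrays. Probe 8183 had -0.17 ± 0.08 (limma adjusted p = 0.00813), with -0.09 and 0.25, and its deposited values were negative on all 12 arrays. All 7 probes had a negative value, against 44.2% of all probes. The 3 calls held without each set in turn. Probe 14552, with -0.07 ± 0.11, did not pass (limma adjusted p = 0.252) and was 0.38 on first and 0.53 on turned swap arrays.

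**Figure D3:**
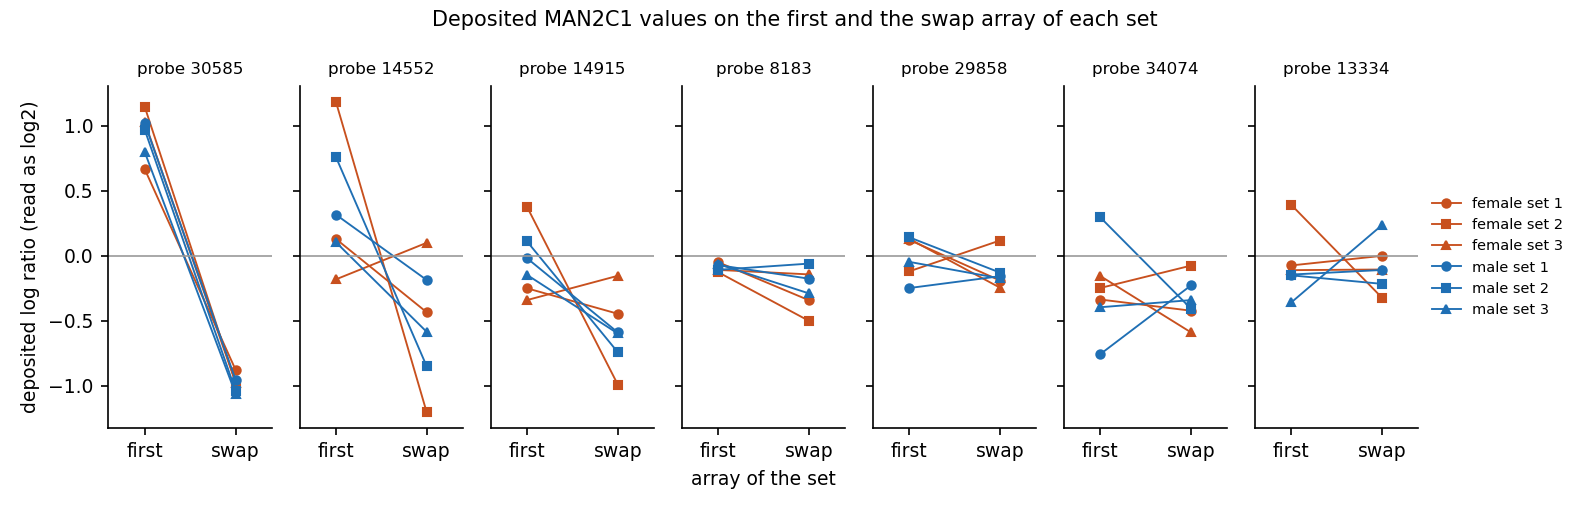
Deposited log ratios of each MAN2C1 probe on the first and the swap array, with a line for each of the 6 sets (male in blue, female in orange). Lines of probe 30585 run from 0.66 or more to -0.88 or less, while those of probe 8183 stay below 0 on both arrays.

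Whether the pools of the 6 sets differed in MAN2C1 was tested with limma's F on 12 sign-turned arrays, where the error is the difference between first and turned swap arrays of the same RNA. That error holds no biological spread, so a call says only that 2 or more of these sets differ by more than repeat arrays do. The test compares sets, which lie on 3 slides, and not FE with SE embryos. Male sets 1 and 2 share slide 1, female sets 1 and 2 share slide 2, and set 3 of either sex lies on slide 3. The test passed for 37.7% of all probes and for 3 of the 7 MAN2C1 probes, a share near the background. The calls were those of probe 14552 (limma adjusted p = 0.000171), probe 14915 (limma adjusted p = 0.00369) and probe 13334 (limma adjusted p = 0.0410). Without female set 2 the calls of probes 14915 and 13334 ended (limma adjusted p = 0.0557 and 0.287), and that of probe 13334 also without male set 3 (0.224). Without a term for array role, probe 14552 alone passed (limma adjusted p = 0.00402). Probe 30585 had a limma adjusted p of 0.592, but its small spread between sets entered the choice of the gene, and nothing is read from it.

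Female set 2 and male set 2, in which probe 14552 was highest, had the 2 highest list means of hypoblast and of uterine markers. The same held for the lysosomal glycan genes described below. The mean over the 7 probes of 5 measured hypoblast markers (of 8 listed) was 0.09, 0.45 and -0.74 in male sets 1, 2 and 3 and 0.18, 0.96 and -0.36 in female sets 1, 2 and 3, while the means of the single genes over all sets ran from -0.15 to 0.55. The list mean over the 17 probes of 9 lysosomal genes was 0.15, 0.37 and -0.52 in male sets 1, 2 and 3 and -0.08, 0.75 and -0.67 in female sets 1, 2 and 3. Trophectoderm markers (10 of 10 measured) had list means from -0.44 to 0.35 over the sets and epiblast markers (6 of 7) from -0.0057 to 0.09. Uterine markers (7 of 8) had -0.30 to 0.16, with 0.16 in female set 2 and 0.05 in male set 2. Blood markers (4 of 8) had -0.05 to 0.07. Female set 2 was also the highest for trophectoderm, epiblast and blood markers. List means average over probes, and the single genes varied unequally over the sets. Among uterine markers the SD was 1.31 for UPTI and 0.76 for CYP26A1, and 0.13 or less for each other gene. Among hypoblast markers APOE gave 3 of the 7 probes with an SD of 1.06, against 0.19 for FOXA2. The list means are therefore not a trait of every marker. The part of cell makeup in the MAN2C1 ratios was not tested.

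The male and the female ratio of each MAN2C1 probe were compared in the same limma fit, a contrast that did not choose the gene. Its standard error rests on the spread within a sex, whose small size for probe 30585 helped to choose the gene, so the interval of that probe may be too narrow. Probe 30585 had 0.97 ± 0.04 in male and 0.94 ± 0.15 in female embryos (log2, SD, n = 3 sets each). The difference was 0.03, with a 95% confidence interval of -0.25 to 0.31 (limma adjusted p = 0.9997). Probe 13334 had the largest difference of the 7, -0.09 ± 0.18 in male against 0.11 ± 0.22 in female embryos, with an interval of -0.58 to 0.18. Probe 14552 had 0.47 ± 0.30 and 0.45 ± 0.68, and its interval of -0.84 to 0.88 was the widest. Limma called 0 of 7 probes, and 0 of 43769 (0%) over the series. At an unadjusted p under 0.05 there were 0 of 7 and 819 of 43769. Sets of equal number were not paired in this fit, and how sows shared between the sexes change the width of the intervals was not tested. The fit had no term for slide, and only slide 3 carried both sexes, so sex and slide are largely confounded in this contrast. With slide as a block the contrast rests on male set 3 and female set 3 alone, which cannot separate the effects. In these sets probe 30585 had 0.93 and 1.00, and probe 13334 had -0.30 and -0.0024. The intervals do not show that the sexes were alike.

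Genes that handle N-glycans around MAN2C1 were compared between FE and SE embryos in 4 lists of 59 genes, of which 39 were measured with 72 probes. Limma called 0 of the 72 probes (smallest adjusted p = 0.503), where 2 of all 43769 probes (0.00457%) were called. An unadjusted p under 0.05 was found for 4 of 72 probes (5.56%), against 5.92% of all probes. None of the 72 reached the size of probe 30585, which entered the choice of the gene and was reached by 0.231% of all probes. Nothing is read from this.

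On the list of glycan release and degradation, NGLY1 had a mean over probes of 0.16 ± 0.34 (log2, SD, n = 6 sets). NGLY1 is the peptide N-glycanase that releases the glycans MAN2C1 trims. VCP, the ATPase that pulls proteins out of the endoplasmic reticulum, had 0.35 ± 0.16, with 6 of 6 sets positive. ERLEC1, a lectin of the endoplasmic reticulum that binds trimmed glycans, had -0.22 ± 0.14, and its lower probe had -0.34 ± 0.07 with 0 positive sets. RAD23B, which links the glycanase to the proteasome, had 0.19 ± 0.53, and OS9, another lectin of the endoplasmic reticulum, 0.17 ± 0.47. FBXO6, DERL3, SEL1L and DERL1 had -0.23 ± 0.25, -0.21 ± 0.60, -0.13 ± 0.24 and -0.04 ± 0.68. The 9 measured genes of glycan release and degradation from the endoplasmic reticulum had a median of -0.04, with 4 positive and 5 negative, against -0.0090 over all genes.

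None of the measured alpha-mannosidases of the secretory pathway passed, where 0.00457% of all probes did. MAN2A1 and MAN2A2, the Golgi enzymes of the same family as MAN2C1, had -0.12 ± 0.23 and -0.08 ± 0.06 (log2, SD, n = 6 sets). MAN1A1, MAN1A2 and MAN1C1, Golgi mannosidases of another family, had 0.13 ± 0.26, 0.0092 ± 0.16 and 0.02 ± 0.23. EDEM2, which starts mannose trimming of misfolded glycoproteins, had -0.21 ± 0.37 over its 3 probes, 1 of which had -0.44 ± 0.48 with 1 of 6 sets positive, and MANEA, a Golgi endomannosidase, -0.19 ± 0.27. The 11 measured genes of trimming had a median of 0.0092, with 6 positive and 5 negative.

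In the lysosome, MAN2B1, the lysosomal alpha-mannosidase of the MAN2C1 family, had a mean over its 3 probes of 0.10 ± 0.32, and its highest probe had 0.36. MANBA, the beta-mannosidase, had -0.05 ± 0.17. GUSB, the beta-glucuronidase, had 0.31 ± 0.25 with 6 of 6 sets positive, and CTBS, the chitobiase that splits the glycan core, had -0.45 ± 0.56. HEXA, a subunit of beta-hexosaminidase, varied most over the sets at 0.05 ± 0.99. The 9 measured genes had a median of -0.05, with 4 positive and 5 negative.

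In mannose metabolism, MPI, which interconverts mannose and fructose phosphates, had 0.05 ± 0.10, and PMM2, which makes the mannose phosphate for glycan assembly, 0.05 ± 0.09. GMDS, the first enzyme from GDP-mannose to GDP-fucose, had 0.09 ± 0.10, and MPDU1, needed to use dolichol-linked mannose, had -0.38 ± 0.88. The 10 measured genes had a median of -0.01, with 5 positive and 5 negative.

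The genes next to MAN2C1 in the RefSeq order of Sscrofa11.1 were also compared, 5 measured genes on either side. Limma called 0 of their 23 probes (smallest adjusted p = 0.754), where 0.00457% of all probes were called. An unadjusted p under 0.05 was found for 3 (13.0%), against 5.92% of all probes. SIN3A, a scaffold of histone deacetylase complexes and the next gene on 1 side, had -0.11 ± 0.11. NEIL1, a DNA repair glycosylase and the next gene on the other side, had 0.02 ± 0.06 over its 5 probes, with probe means from -0.04 to 0.08. SNUPN, an import adaptor of small nuclear ribonucleoproteins with 8 probes, had 0.18 ± 0.31 and probe means from -0.01 to 0.26. The unnamed locus LOC100156967 had 0.36 ± 0.31 with 6 of 6 sets positive, and IMP3 had -0.30 ± 0.39. The 10 neighbours had a median of -0.00059, with 5 positive and 5 negative.

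**Figure D4:**
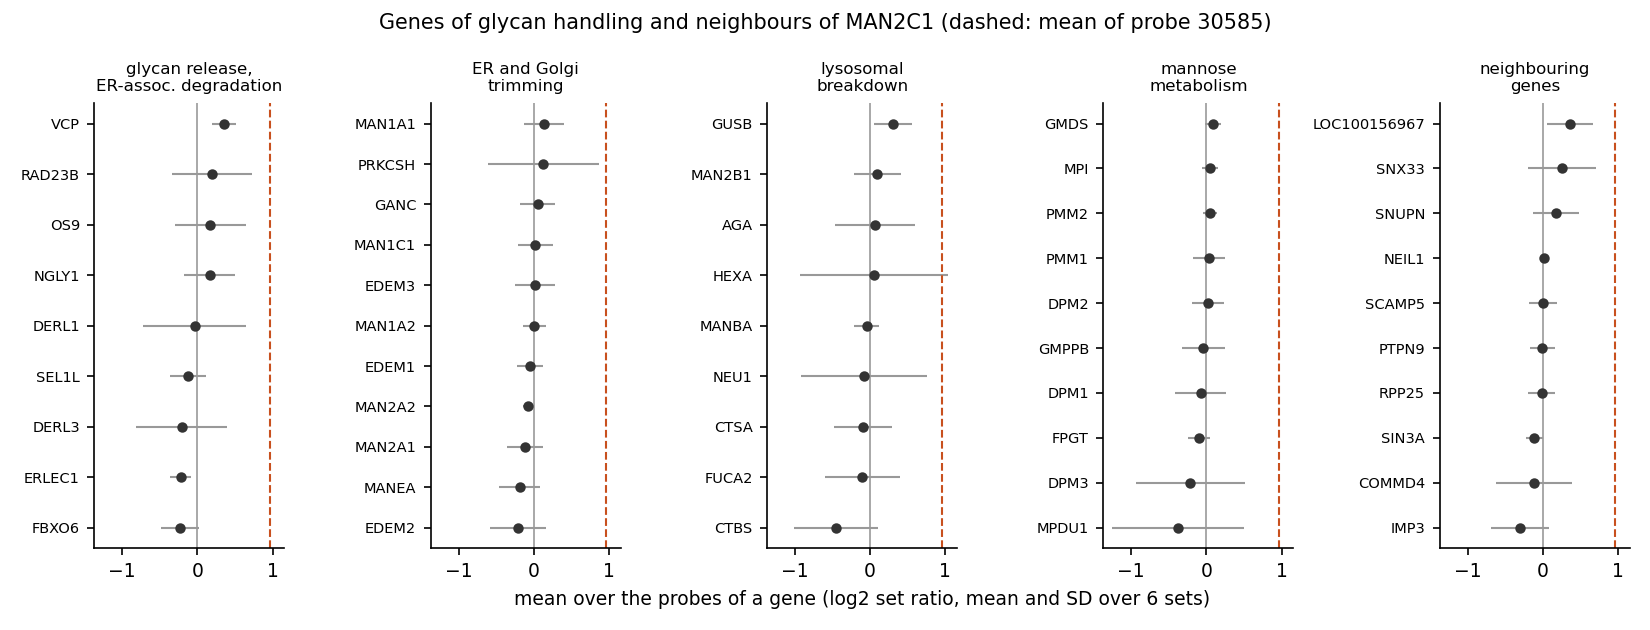
Mean over the probes of each measured gene (log2 set ratio, point and bar for mean and SD over 6 sets) for the 4 glycan lists and the 10 neighbouring genes, with the mean of probe 30585 at 0.96 as a dashed line. All gene means lie between -0.45 and 0.36.

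The named probes most like probe 30585 were found by the root mean square difference of their ratios over the 6 sets. The nearest was a probe of SUCLG2, a subunit of succinyl-CoA ligase, at 0.26, with a mean ratio of 0.81 ± 0.28 (log2, SD, n = 6 sets). Probes of COX6C of the respiratory chain (0.40), RND3 (0.42), SETD5 (0.42) and PRRC1 (0.45) followed. Those differences exceed the SD of probe 30585 itself. The mean over the 7 MAN2C1 probes lay closer to single probes of other genes. The probe of SRP68, a protein of the signal recognition particle, differed from it by 0.054, and 1 probe each of CNOT4, VPS39, LAT and TTLL12 by 0.11. The likeness is that of the probe and not of the gene. The SUCLG2 probe had a ratio of 0.81, and the mean over the 3 probes of SUCLG2 was 0.32. The TTLL12 probe had a ratio of 0.22, and the mean over the 2 probes of TTLL12 was 0.38. RND3, PRRC1, SRP68 and CNOT4 had 1 probe each, so probe and gene could not be compared for them.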

How the data were processed

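Per the labels' protocols, pooled embryo RNA was amplified, labelled with Cy3 and Cy5 and hybridised to 12 two-colour Agilent arrays. The authors deposited a log ratio for each probe on each array, from -4.99 to 5.97, read here as log2. Array medians lay within 0.0108 of 0. The scanner, the normalization, the log base and the numerator of the ratio were not stated in the labels or the table. Single-channel signals were not used here, and precision is limited by the number of arrays.

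Of 43794 probes, 25 with a missing value were left out. Platform symbols, 345 of them updated from RefSeq (Sscrofa11.1), named 18110 probes of 11905 genes. Swap arrays were sign-turned because deviations of first and swap arrays from their means correlated at -0.728. Set means went into limma 3.58.1 under R 4.3.3 (lmFit, eBayes, 1 mean per sex), with Benjamini-Hochberg adjustment over all probes at 0.05. The fits were also run on simulated data with independently drawn sets, a run that does not cover sows shared between sets. The members, the lists, the tests and the rule for named genes (all probes of MAN2C1, the measured list genes, the neighbours, and the 5 most alike genes) were chosen with earlier results of these data known.

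Alternatives were single array roles, unturned signs, centred or scaled arrays, blocks for slide and set number, named probes alone, 12 separate arrays, and each set left out.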

Additional observations from a re-analysis of the deposited data

How the results depend on the processing

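The ratio of probe 30585 stayed between 0.94 and 1.00 without each set in turn and under first arrays alone, swap arrays alone, centring and scaling. The high mean and small spread of this probe entered the choice of the gene, so nothing is read from that closeness. With signs not turned the ratio of probe 30585 was -0.023, and the median of the other probes was -0.13 and the mean over probes -0.15. The median of the other 6 probes was -0.061 on first arrays alone and 0.30 on swap arrays alone, and the mean over probes 0.12 and 0.42. Those shifts follow from the part that kept its sign between arrays, given above. Without each set in turn, the median of the other probes ranged from 0.06 to 0.09 and the mean over probes from 0.23 to 0.29. The mean without probe 30585, an alternative chosen after seeing the data, was 0.15. The count of probes that differed between sets ranged from 1 to 3 without each set in turn and was 1 without a term for array role. On the glycan lists 0 probes passed under all but 2 alternatives: 35 (48.6%) passed with signs not turned, where 37.3% of all probes did, and 2 (2.78%), of ERLEC1 (adjusted p = 0.00962) and VCP (0.0479), where 0.738% of all probes did, with the 12 arrays fitted singly, although 2 arrays of a set repeat the same RNA.

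Set numbers are shared by the sexes, and deviations of male and female sets of 1 number correlated at 0.05, 0.41 and 0.26. Those of unlike numbers ran from -0.35 to 0.06. Of these sets, 2 of 3 male and 3 of 3 female sets correlated best with their own number. These values do not settle whether a number marks the same sows. The numbers were not taken as pairs in the main fits, which thus do not model sows shared between the sexes. With the set number as a replicate block, 0 MAN2C1 probes passed for male minus female (smallest adjusted p = 0.9997), and 0 list probes passed with means over the sexes as 3 replicates. Centring left the MAN2C1 ratios and counts and the count of list probes in place and was not run for the neighbours, the markers, the probe ranges or the likeness. No MAN2C1 probe had a set far from the others by Dixon's criterion. Whether the MAN2C1 probes near 0 lay above background was not analysed here.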
